A study of Mus musculus with 6 samples.

Results

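The mitosis and G2/M genes described here are 56 genes that cells use to enter mitosis, build the spindle, separate the chromosomes and divide. They were chosen by name as one functional module, and all 56 were found among the 55394 genes listed, each with the symbol that the mouse annotation gives to its identifier. By role, 13 are cyclins, kinases and their partners, 14 belong to the kinetochore, the spindle checkpoint and the chromosomal passenger complex, 7 are motors, 7 are spindle and microtubule proteins, 7 are condensin subunits and other chromosome proteins, 4 act at anaphase and 4 in cytokinesis.

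The levels come from SMART-seq, a full-length RNA-seq method for small inputs, of 1000 lung group 2 innate lymphoid cells (ILC2s) per library, sorted from wild type C57BL/6 neonates. In the Abx group (3 libraries) the pregnant dams drank a broad-spectrum antibiotic cocktail from gestation day 10 to 14, and in the Con group (3 libraries) the pups were born to control dams. The cells had been gated as CD45+Lin-CD90.2+CD25+, and the lineage stain that was excluded held antibodies against T cell, B cell, NK cell, myeloid and erythroid (Ter119) antigens. The study used mice of both sexes, and the number of pups behind each library and their exact age are not given in the sources used here. Nothing says whether the libraries of a group came from separate litters, so p-values measure only the spread between these 6 libraries.

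A dividing cell accumulates cyclins A and B during G2, and cyclin B with its kinase Cdk1 drives entry into mitosis. Aurora and Polo kinases then assemble the spindle, the checkpoint holds the cell until every kinetochore is attached, and the anaphase-promoting complex destroys cyclin B and securin so that sister chromatids part. Most of these genes are silent in resting cells and are switched on together late in the cell cycle by the MuvB complex with B-Myb (Mybl2) and FoxM1, which acts through a promoter element called the CHR, often beside boxes bound by the factor NF-Y. In lung ILC2s the early weeks of life are known as a time of expansion, and Ki-67, the product of Mki67, is the usual protein marker of cycling cells.

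Most of the member promoter windows searched held that element in the exact letters TTTGAA. Those of Ccnb1, Birc5, Cks2 and Pttg1, among others, held no such match. RefSeq promoter windows of GRCm38.p6, running from 250 bases before to 50 bases after the start site, were at hand for 46 of the 56 members (48 windows). They were searched on both strands for the CHR (TTTGAA) and for the CCAAT box (CCAAT), the letters to which NF-Y binds. A CHR was present in 72.9% of the member windows, against 12.2% of the 7653 windows of all genes tested and 17.9% of all 32851 promoter windows. A CCAAT box was present in 75.0% of the member windows, against 38.7% and 37.4%, and both motifs stood in 64.6%, against 5.08% and 6.95%. A CHR that began within 50 bases of the start site was found in 62.5% of the member windows and in 3.01% of those of all genes tested. Among other mitotic genes, a list of 117 that leaves out the members, 36.3% of 113 windows held a CHR, and among genes of G1/S and DNA replication 13.6% of 44 windows did. The matches share bases in 1 of the 48 member windows. A match describes the letters of a window and does not show that a factor binds there. Variants of these letters and bases outside the windows were not searched, so a window without a match does not show that the element is absent.

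**Figure D1:**
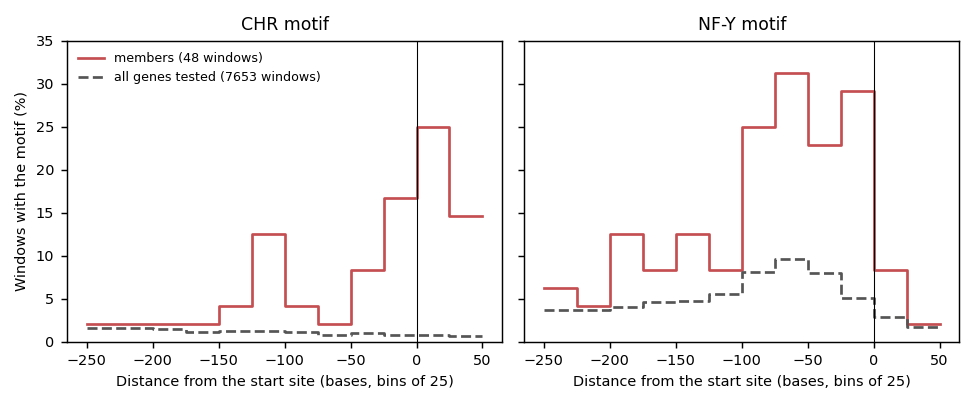
Share of promoter windows (vertical axis, %) in which a CHR motif (left) or an NF-Y motif, the CCAAT box (right), begins in each bin of 25 bases, by distance from the start site (horizontal axis, bases). The solid line is the 48 windows of the mitosis and G2/M genes and the dashed line the 7653 windows of all genes tested. In the members the CHR is most frequent in the bins around the start site and the NF-Y motif in the bins before it, while the dashed lines stay under 10%.

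The windows of the 5 members shown first below are those of genes whose groups of libraries did not overlap, and Ccnb2 is shown because cyclin B2 is the best expressed cyclin among the members. All are 300 bases, written 5′ to 3′ on the strand of the gene, with each CHR (TTTGAA or TTCAAA) and each CCAAT box (CCAAT or ATTGG) in capitals.
Ttk, chr9:83834439-83834738, plus strand: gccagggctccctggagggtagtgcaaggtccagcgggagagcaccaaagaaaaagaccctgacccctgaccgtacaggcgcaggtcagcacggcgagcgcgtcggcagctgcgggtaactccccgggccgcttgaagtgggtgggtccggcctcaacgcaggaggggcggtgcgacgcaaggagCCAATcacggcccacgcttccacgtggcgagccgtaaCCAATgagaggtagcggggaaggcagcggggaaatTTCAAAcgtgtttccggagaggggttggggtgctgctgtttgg
Top2a, chr11:99024140-99024439, minus strand: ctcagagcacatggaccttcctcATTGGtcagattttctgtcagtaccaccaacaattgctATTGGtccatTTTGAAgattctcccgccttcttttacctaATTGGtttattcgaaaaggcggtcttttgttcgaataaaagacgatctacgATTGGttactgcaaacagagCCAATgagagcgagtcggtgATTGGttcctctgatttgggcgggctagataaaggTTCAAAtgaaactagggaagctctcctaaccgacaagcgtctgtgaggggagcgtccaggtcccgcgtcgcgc
Ect2, chr3:27153829-27154128, minus strand: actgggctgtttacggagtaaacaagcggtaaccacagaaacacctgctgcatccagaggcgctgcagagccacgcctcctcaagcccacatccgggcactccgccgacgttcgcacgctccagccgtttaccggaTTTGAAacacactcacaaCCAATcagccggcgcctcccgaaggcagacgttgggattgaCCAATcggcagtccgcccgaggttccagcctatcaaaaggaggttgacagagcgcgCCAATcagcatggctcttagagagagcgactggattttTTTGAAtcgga
Kif23, chr9:61946750-61947049, minus strand: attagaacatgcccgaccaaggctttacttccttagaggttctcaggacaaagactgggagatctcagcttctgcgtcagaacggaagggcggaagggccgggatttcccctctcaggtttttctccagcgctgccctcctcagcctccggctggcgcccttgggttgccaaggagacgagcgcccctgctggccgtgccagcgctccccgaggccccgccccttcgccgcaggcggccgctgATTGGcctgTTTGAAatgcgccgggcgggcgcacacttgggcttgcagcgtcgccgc
Cdkn3, chr14:46760291-46760590, plus strand: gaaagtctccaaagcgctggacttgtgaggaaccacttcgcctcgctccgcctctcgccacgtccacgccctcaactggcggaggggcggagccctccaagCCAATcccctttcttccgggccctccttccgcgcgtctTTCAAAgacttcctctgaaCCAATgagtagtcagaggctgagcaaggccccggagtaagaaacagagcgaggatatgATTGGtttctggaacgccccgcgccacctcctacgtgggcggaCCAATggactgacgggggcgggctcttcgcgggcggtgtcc
Ccnb2, chr9:70421505-70421804, minus strand: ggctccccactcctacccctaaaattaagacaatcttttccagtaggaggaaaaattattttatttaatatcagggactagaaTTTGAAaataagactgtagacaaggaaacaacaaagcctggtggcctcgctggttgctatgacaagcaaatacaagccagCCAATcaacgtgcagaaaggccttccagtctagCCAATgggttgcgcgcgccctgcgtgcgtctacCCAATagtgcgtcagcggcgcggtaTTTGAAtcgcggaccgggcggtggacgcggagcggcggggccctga
Counted from the start site as position 1, the CHR nearest to it begins at 8 in Ttk, at -23 in Top2a, at 40 in Ect2, at 3 in Kif23, at -111 in Cdkn3 and at 5 in Ccnb2. Ect2 has a further window, which is not shown. Each of the 6 windows holds both motifs, as 64.6% of the member windows do. No sequence is shown for Kif20a, the sixth gene whose groups did not overlap.

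Levels are given as FPKM, fragments scaled to exon length and to the mapped reads of the library, which allows levels of different genes to be compared. Total FPKM per library ranged from 420941 to 489262, and 8574 to 9203 genes reached 1 FPKM in the Con libraries and 7074 to 8193 in the Abx libraries. Reads per library are unknown, so no counting error is given, and a gene listed at 0 was read as not detected. Of 13 ILC2 markers, Gata3, Rora, Klrg1, Areg, Icos and Id2 were at 33.9 FPKM or more in all 6 libraries, while Il1rl1, the IL-33 receptor, did not pass 2.94 FPKM and Il18r1 did not pass 3.59 FPKM. Xist was at 3.78, 4.38 and 5.09 FPKM in Con but listed at 0 in Abx, and the Y-linked Eif2s3y was at 0.03, 0.58 and 0.86 FPKM in Con, against 22.8, 11.9 and 24.4 FPKM in Abx, so for every difference below the exposure and the sex of the pups cannot be told apart. In pools of sorted cells, a change in the number of cycling cells and a change in the RNA of each such cell cannot be told apart either.

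Of the 56 members, 44 reached 1 FPKM in at least 3 of the 6 libraries and were tested on log2(FPKM + 1) with limma (two-sided), and p was adjusted over the 8718 genes tested by the Benjamini-Hochberg method. With the adjusted p below 0.05 and a change of more than 2-fold required, 0 of the 44 members were called, where 0.0574% of all genes tested were called (5 genes, 0.0459% higher and 0.0115% lower in Abx). Those 5 genes, Ly6d, H2-Ab1, Hist1h2ao and Gm20069 with higher and Vps37b with lower levels in Abx, are not genes of mitosis. An unadjusted p under 0.05 was reached by 4 members, Ect2 and Ttk with higher and Kif23 and Cdkn3 with lower values in Abx, which is 9.09% of the members tested, against 11.0% of all genes tested (4.74% higher, 6.25% lower). The groups of libraries did not overlap in 6 members, 13.6% of those tested, with 4 higher and 2 lower in Abx, against 17.2% of all genes tested (8.49% higher, 8.73% lower). These shares are near or under those of all genes tested. With libraries left out in turn, between 1 and 6 members had an unadjusted p under 0.05, with 1 without Con library 2 or Con library 3 and 6 without Abx library 3. Mean levels were higher in Abx in 23 of the 44 members (52.3%) and lower in 21, where 47.0% of all genes tested were higher. The median difference, Abx minus Con in log2(FPKM + 1), was 0.11 over the members and -0.06 over all genes tested.

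**Figure D2:**
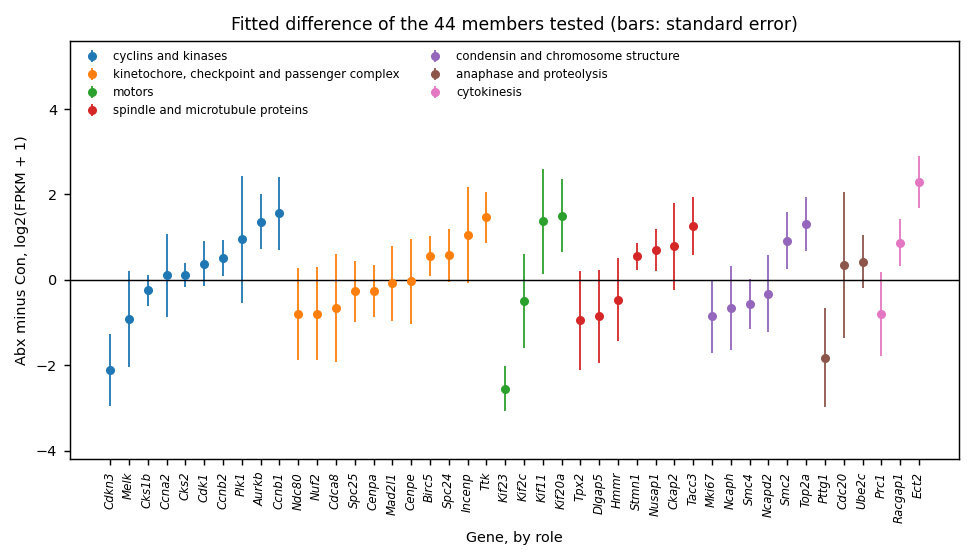
Fitted difference between the groups, Abx minus Con in log2(FPKM + 1) (vertical axis), of the 44 members tested (horizontal axis), ordered by size within each role and coloured by role. Points are the fitted differences and bars their standard errors. Values run from -2.55 (Kif23) to 2.29 (Ect2), with members on both sides of 0 in every role.

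The 12 members under the filter were Cdc25b, Cdc25c, Aurka, Cenpf, Bub1, Bub1b, Kif4, Kif15, Kif22, Ncapg, Espl1 and Anln. Each reached 1 FPKM in at most 2 libraries, and in each the groups overlapped. Cdc25c, a phosphatase that activates Cdk1, stayed at or under 0.05 FPKM throughout. The 21 members at 1 FPKM or more in all 6 libraries had a median exonic length of 4059 bases, the 23 at that level in 3 to 5 libraries a median of 5177 bases, and the 12 under the filter a median of 5216 bases.

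The cyclins, kinases and their partners held the most abundant regulators among the members. Cks1b and Cks2, small proteins that bind Cdk1, were both above 73 FPKM in every library. Cks2 was at 121, 122 and 115 FPKM in Con, against 109, 186 and 106 FPKM in Abx. Its difference was 0.11 (standard error 0.28, limma adjusted p = 0.912), and the sign turned without Abx library 2 (-0.15). Cks1b was at 168, 135 and 85.6 FPKM in Con, against 73.3, 151 and 106 FPKM in Abx, so the ranges lay over each other (-0.24, standard error 0.36, limma adjusted p = 0.863, and 0.02 without Abx library 1). Reads of Cks2 can also fit 3 near-identical copies in the genome, so its level is uncertain.

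Among the cyclins, Ccnb2 was at 31.8, 70.6 and 48.8 FPKM in Con, against 99.9, 70.2 and 46.0 FPKM in Abx. The lowest Abx library was thus under the mean of Con. Ccnb1, cyclin B1, was at 6.07, 10.5 and 1.3 FPKM in Con, against 24.2, 24.9 and 6.29 FPKM in Abx. Abx libraries 1 and 2 were above all Con libraries and Abx library 3 was not (1.55, standard error 0.86, limma adjusted p = 0.585), and the genome holds 4 near-identical copies of this gene. Cdk1, the kinase that cyclin B activates, was at 12.2, 9.70 and 8.37 FPKM in Con, against 9.52, 13.8 and 17.7 FPKM in Abx, a difference of 0.38 (standard error 0.52, limma adjusted p = 0.851). Ccna2, cyclin A2, ranged from 1.25 to 14.1 FPKM, with both of these extremes in Abx.

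Cdkn3 encodes a phosphatase that dephosphorylates cyclin-dependent kinases. It was at 5.35, 8.34 and 6.22 FPKM in Con, and it was listed at 0 in Abx libraries 1 and 2 and at 4.25 FPKM in Abx library 3. All Abx libraries were under all Con libraries, with a difference of -2.12 (standard error 0.84, limma adjusted p = 0.397).

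The Aurora and Polo kinases varied widely between libraries of the same group. Aurka, the kinase of the spindle poles, was at 0.02, 17.4 and 12.6 FPKM in Con, against 0.03, 0.03 and 0 FPKM in Abx. It was high in 2 Con libraries and near 0 in the other 4, so it was not tested across genes (exact permutation test, two-sided p = 0.3, where 0.1 is the smallest that 3 libraries against 3 allow). Aurkb, the kinase of the passenger complex, was at 28.9, 5.97 and 9.87 FPKM in Con, against 47.5, 36.7 and 20.2 FPKM in Abx. Only Con library 1 lay above an Abx library, and the difference was 1.37 (standard error 0.64, limma adjusted p = 0.493). Plk1 was at 0.41, 7.36 and 11.3 FPKM in Con, against 0.13, 21.2 and 40.9 FPKM in Abx. In each group 1 library was under 1 FPKM, the difference was 0.95 (standard error 1.49, limma adjusted p = 0.868), and without Abx library 3 it was -0.07. Melk, a further kinase of proliferating cells, was listed at 0 in 3 libraries and reached at most 8.86 FPKM. Over the 10 members of the role that were tested, the median difference was 0.25, with 7 higher and 3 lower.

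**Figure D3:**
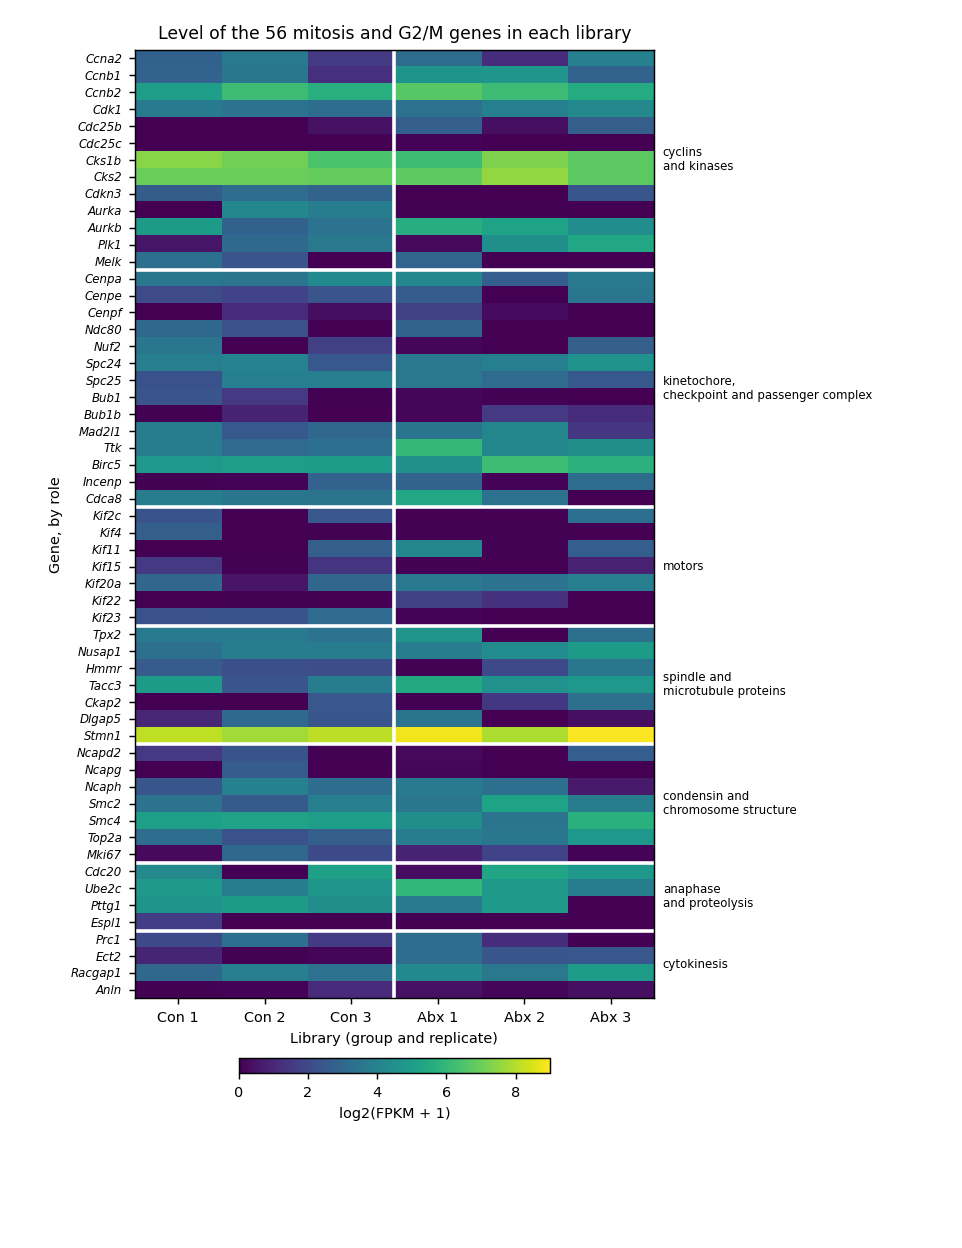
Level of each of the 56 mitosis and G2/M genes (rows, ordered by role) in each of the 6 libraries (columns), as log2(FPKM + 1) on the colour scale. The white vertical line separates Con from Abx. Stmn1, Cks1b, Cks2 and Ccnb2 are bright in all columns, and many other rows switch between dark and bright within a group.

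In the kinetochore, checkpoint and passenger complex role, Ttk, the Mps1 kinase that starts checkpoint signalling at unattached kinetochores, was the member whose groups did not overlap. Ttk was at 12.8, 7.76 and 8.66 FPKM in Con, against 62.3, 16.96 and 20.7 FPKM in Abx. All 3 Abx libraries were above all 3 Con libraries, with Abx library 1 the highest. The difference was 1.47 (standard error 0.60, limma adjusted p = 0.411), and it was 0.91 without Abx library 1.

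Of the other checkpoint genes among the members, Mad2l1, which inhibits Cdc20 and has a near-identical copy in the genome, had a difference of -0.09 (standard error 0.88), and Bub1 and Bub1b reached at most 4.18 and 1.83 FPKM. Of the 4 subunits of the Ndc80 complex, the microtubule anchor of the kinetochore, Spc24 and Spc25 were at 3.81 FPKM or more in every library, while Ndc80 and Nuf2 each reached 1 FPKM in 3 libraries. Cenpa, the histone H3 variant of centromeres, had a mean of 12.98 ± 4.53 FPKM over the Con libraries and of 11.2 ± 5.72 FPKM over those of Abx (SD, n = 3 each). Cenpe had a difference of -0.03 and Cenpf stayed under the filter.

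Birc5 (survivin), Incenp, Cdca8 (borealin) and Aurkb together form the passenger complex, which corrects wrong attachments. Birc5 was at 26.9, 32.0 and 30.6 FPKM in Con, against 22.2, 72.3 and 54.0 FPKM in Abx. The Con libraries lay close to each other and the Abx libraries on both sides of them (0.56, standard error 0.47, limma adjusted p = 0.732). Incenp was near 0 in 3 libraries and at 6.19 FPKM or more in the other 3. Cdca8 was highest in Abx library 1 at 39.6 FPKM and listed at 0 in Abx library 3. Thus the 4 partners of a single complex were not highest in the same library, with Incenp and Birc5 highest in Abx libraries 3 and 2, and Aurkb and Cdca8 in Abx library 1. The median difference over the 11 members tested in this role was -0.09, with 4 higher and 7 lower.

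The 2 motor genes whose libraries did not overlap between the groups went in opposite directions. Kif23, the motor of the centralspindlin complex at the midzone of the spindle, was at 3.78, 4.07 and 7.81 FPKM in Con, against 0.06, 0.01 and 0 FPKM in Abx. It was near 0 in all Abx libraries. The difference was -2.55 (standard error 0.52, limma adjusted p = 0.0967), and it depended on the pseudocount (-7.68 with 0.01 in place of 1). Kif23 passed the filter on low values through the Con libraries only, so it could be tested only because it was high there. Kif20a, a motor that brings the passenger complex to the midzone, was at 6.79, 0.40 and 6.77 FPKM in Con, against 11.3, 9.89 and 13.5 FPKM in Abx. All Abx libraries were above Con, with a difference of 1.5 (standard error 0.86, limma adjusted p = 0.600) that was 0.68 without Con library 2. Kif20a shares 1271 exonic bases with Cdc23 on the opposite strand, and without strand in the counting reads of the pair cannot be told apart.

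The remaining motors were each detected in a few libraries. Kif11, which pushes the spindle poles apart, was at 5.43 FPKM or more in 3 libraries and at or under 0.03 FPKM in the other 3. Kif2c, which depolymerizes microtubules at centromeres, was at 4.11 FPKM or more in 3 libraries and at or under 0.01 FPKM in the others. Kif4, Kif15 and Kif22, motors that act on chromosome arms and spindle fibres, reached at most 5.56, 1.80 and 2.33 FPKM.

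Among the spindle and microtubule proteins, Stmn1, stathmin, which binds free tubulin and destabilizes microtubules, was the most abundant of all 56 members. It was at 282, 217 and 273 FPKM in Con, against 450, 234 and 497 FPKM in Abx. Abx libraries 1 and 3 were above all Con libraries and Abx library 2 lay within their range. Its mean was 257 ± 35.2 FPKM over the Con libraries and 394 ± 140.2 FPKM over those of Abx (SD, n = 3 each), a difference of 0.55 (standard error 0.31, limma adjusted p = 0.594) that was 0.89 without Abx library 2. A near-identical copy of Stmn1 lies elsewhere in the genome.

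Tacc3 and Nusap1, which stabilize and bundle spindle microtubules, had differences of 1.26 (standard error 0.68) and 0.70 (standard error 0.50). Tpx2, an activator of Aurora A, was between 9.05 and 24.7 FPKM in 5 libraries and listed at 0 in Abx library 2. Hmmr was at 0.03 FPKM in Abx library 1 and at 2.94 FPKM or more in the others. Ckap2 and Dlgap5 each reached 1 FPKM in 3 libraries. All 7 members of this role were tested, with 4 higher and 3 lower in Abx and a median difference of 0.55, which is the value of Stmn1.

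**Figure D4:**
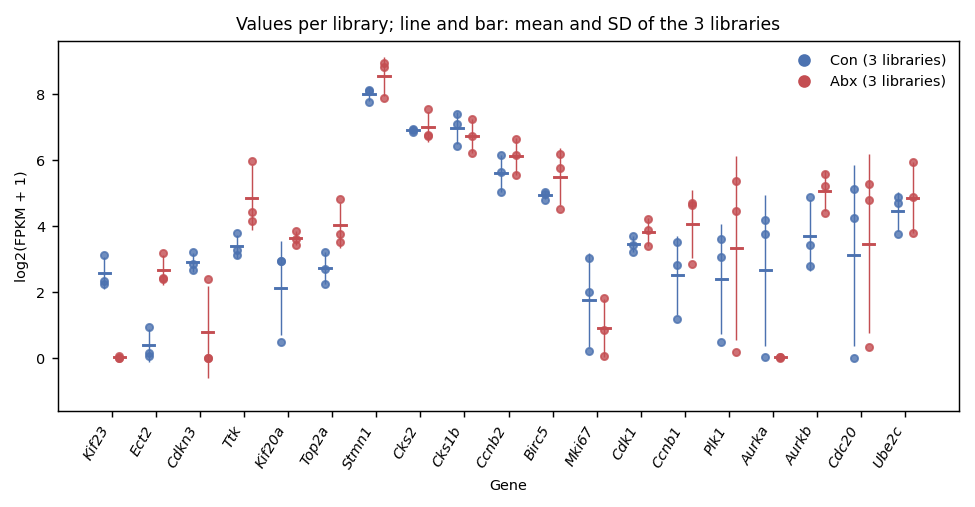
Level in log2(FPKM + 1) (vertical axis) of 19 mitosis and G2/M genes (horizontal axis) in the 3 Con libraries (blue) and the 3 Abx libraries (red). Points are libraries, horizontal lines the group means and vertical lines the SD. The points of the first 6 genes do not overlap between the groups, and in Plk1, Aurka and Cdc20 points of a single group span from 0.41 FPKM or less to 11.3 FPKM or more.

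Top2a, the topoisomerase that untangles chromosomes before they separate, was the member of the condensin and chromosome role whose groups did not overlap. It was at 8.40, 3.76 and 5.56 FPKM in Con, against 12.7, 10.5 and 27.1 FPKM in Abx. The difference was 1.31 (standard error 0.64, limma adjusted p = 0.519). Mki67, the other common label of cycling cells, had the opposite sign. It was at 0.17, 7.28 and 3.03 FPKM in Con, against 0.80, 2.55 and 0.05 FPKM in Abx, a difference of -0.85 (standard error 0.85, limma adjusted p = 0.782). Mki67 was under 1 FPKM in 1 Con and 2 Abx libraries, including Abx library 3, in which Top2a was highest, and it has a near-identical copy in the genome.

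Smc2 and Smc4, the core ATPases of condensin, had differences of 0.91 (standard error 0.67) and -0.56 (standard error 0.58), though they act as a pair in the same complex. Smc4 was at 33.3 ± 2.10 FPKM in Con (SD, n = 3) and ranged from 9.90 to 51.95 FPKM in Abx. The other condensin subunits, Ncapd2, Ncapg and Ncaph, had lower means in Abx, and Ncapg reached 1 FPKM only in Con library 2. Over the 6 members tested in this role, 2 were higher and 4 lower, with a median difference of -0.44.

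At anaphase, Cdc20 activates the anaphase-promoting complex, Ube2c supplies it with ubiquitin, Pttg1 (securin) is its substrate, and Espl1 (separase) is the protease set free. Cdc20 was at 18.0, 0 and 34.1 FPKM in Con, against 0.27, 37.95 and 26.9 FPKM in Abx. In each group 1 library was at or near 0 and the others at 18.0 FPKM or more, so its difference of 0.35 had a standard error of 1.71 (limma adjusted p = 0.963) and turned to -1.22 without Con library 2, to -0.55 without Abx library 2 and to -0.31 without Abx library 3. Ube2c was at 28.4, 12.7 and 25.2 FPKM in Con, against 60.9, 28.4 and 12.8 FPKM in Abx. Only Abx library 1 was clearly above the Con range (0.42, standard error 0.62, limma adjusted p = 0.859), and the sign turned without it (-0.12). Ube2c shares 592 exonic bases with Tnnc2 on the opposite strand. Pttg1 was at 20.7 FPKM or more in Con, but at 12.0, 27.3 and 0 FPKM in Abx (-1.83, standard error 1.16, limma adjusted p = 0.647). Espl1 reached 1 FPKM only in Con library 1.

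In cytokinesis, Ect2, the exchange factor that activates RhoA to build the contractile ring, was higher in Abx. It was at 0.93, 0.04 and 0.12 FPKM in Con, against 8.21, 4.26 and 4.40 FPKM in Abx. All Abx libraries were above Con, where Ect2 stayed under 1 FPKM. The difference was 2.29 (standard error 0.60, limma adjusted p = 0.161), or 4.88 with a pseudocount of 0.01. Ect2 passed the filter through the Abx libraries only. Racgap1, which binds Ect2 and is the partner of Kif23 in centralspindlin, was at 7.26 FPKM or more in all libraries, with a difference of 0.87 (standard error 0.56, limma adjusted p = 0.651). Prc1, which bundles midzone microtubules, had a difference of -0.80 (standard error 0.98), and Anln, anillin, reached 1 FPKM only in Con library 3.

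The summed level of the 56 members, which weights them by abundance, was 1007, 906 and 908 FPKM in Con, against 1313, 1121 and 1291 FPKM in Abx. All Abx libraries were above all Con libraries. Means were 940.2 ± 57.7 and 1241 ± 105.2 FPKM (SD, n = 3 each), a ratio of 1.32. As a share of the total FPKM of each library the means were 0.218% and 0.274%, a ratio of 1.26. By library the shares were 0.224%, 0.214% and 0.216% in Con, against 0.293%, 0.229% and 0.299% in Abx, so Abx library 2 was close to Con library 1. The 5 members with the highest means (Stmn1, Cks2, Cks1b, Ccnb2 and Birc5) held 57.4% to 63.7% of the sum. Without Stmn1 the ratio was 1.24, and without these 5 members it was 1.36. The number of members at 1 FPKM or more went the other way, at 41, 40 and 43 in Con and 37, 34 and 37 in Abx, as did the number of all genes at that level given above. No test was made on the sum, since the members were chosen with earlier results of these libraries known.

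**Figure D5:**
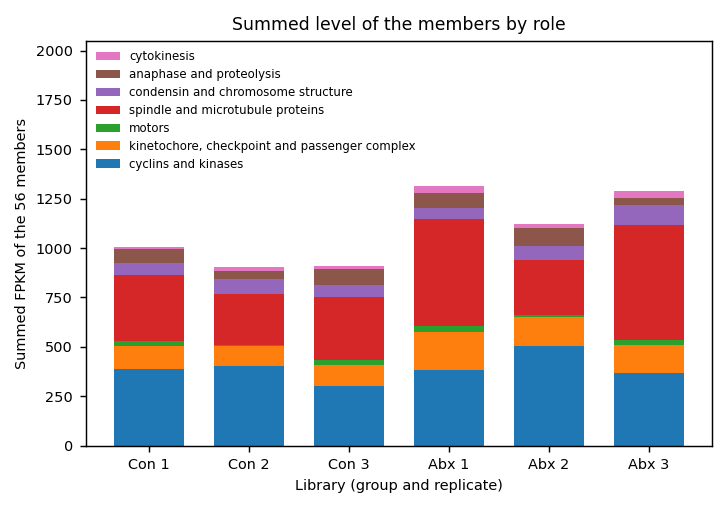
Summed FPKM of the 56 members (vertical axis) in each library (horizontal axis), stacked by role. The Con libraries reach 906 to 1007 FPKM and the Abx libraries 1121 to 1313 FPKM. The layer of spindle and microtubule proteins, most of it Stmn1, is thick in Abx libraries 1 and 3, at 540.1 and 582 FPKM, against 257 to 337 FPKM in Con.

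The sum was highest in Abx libraries 1 and 3, but without Stmn1 it was 863, 886 and 793 FPKM in the Abx libraries, highest in Abx library 2, against 635 to 725 FPKM in Con. Relative to the mean of Con, the median of the 44 members in log2(FPKM + 1) was 0.14, -0.0032 and -0.03 for Con, against 0.45, 0.12 and 0.73 for Abx, while the median over all genes tested lay between -0.05 and 0.11. Of the 44 members, 16 had their highest value in Abx library 3 and 10 in Abx library 1, against 6 in Abx library 2 and 4, 6 and 2 in the Con libraries. The same count was not made over all genes tested, whose median SD was also wider in Abx, at 0.89 against 0.55 in Con. Abx library 3 also had the most members listed at 0, at 10, against 3 in Abx library 1, 6 in Abx library 2 and 4 in each Con library.

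The spread between libraries of a group was larger, at the median, in the members than over all genes tested. The median SD of log2(FPKM + 1) was 0.66 in Con and 1.11 in Abx over the members, and 0.55 and 0.89 over all genes tested. A member was counted as switching when it was under 0.1 FPKM in 1 library while another library of the same group had 4 FPKM or more. This was so for 20.5% of the members tested in Con and 36.4% in Abx, against 10.7% and 23.7% of all genes tested. The median level of the members, 3.17 in log2(FPKM + 1), was near that of all genes tested, 2.94.

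Other genes of mitosis, from a list of 117 that covers further kinetochore and checkpoint proteins, kinases and regulators, the anaphase-promoting complex, cohesin, motors and tubulins, had a median difference of -0.03 over the 76 that were tested, with 37 higher and 39 lower means in Abx. None (0) of them was called by limma. At an unadjusted p under 0.05, 7 had higher and 3 lower values in Abx, where 4.74% of all genes tested were higher and 6.25% lower. Of the 76 tested, the groups did not overlap in 10 with higher and 5 with lower levels in Abx, against 8.49% and 8.73% of all genes tested. The summed level of the 117 genes was 1275 to 1662 FPKM in Con, against 1751 to 2420 FPKM in Abx. Mybl2, B-Myb, the partner of MuvB, was at 0, 0.01 and 0 FPKM in Con, against 24.8, 3.61 and 12.8 FPKM in Abx. It was near 0 in every Con library and passed the filter through the Abx libraries only (3.56, standard error 0.79, limma adjusted p = 0.111). Lin54, the MuvB subunit that recognizes the CHR, was at 4.98, 6.69 and 23.1 FPKM in Con, against 0.04, 2.74 and 0.03 FPKM in Abx, below Con throughout (-2.70, standard error 0.89, limma adjusted p = 0.269). Foxm1 did not pass 1.27 FPKM in any library. Fbxo5 (Emi1), an inhibitor of the anaphase-promoting complex, was at 4.54, 0.03 and 2.41 FPKM in Con, against 17.2, 43.2 and 15.4 FPKM in Abx (3.13, standard error 0.86, limma adjusted p = 0.177).

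Genes of cohesin and of the spindle were among those higher in Abx at an unadjusted p under 0.05. Cdca5 (sororin), which keeps sister chromatids together, had a difference of 3.1 (standard error 0.94, limma adjusted p = 0.220), and Rad21, a subunit of the cohesin ring, one of 2.18 (standard error 0.85, limma adjusted p = 0.381). Cenpc1, which links centromeric chromatin to the kinetochore, had a difference of 1.9 (standard error 0.75, limma adjusted p = 0.389). The tubulins Tuba1b and Tubb5 had differences of 0.76 (standard error 0.27, limma adjusted p = 0.313) and 0.69 (standard error 0.29, limma adjusted p = 0.440). The other tubulins of the list were not higher, with differences of -0.33 (standard error 0.415) and -0.02 (standard error 0.32). Kif18b, a further motor, and Depdc1b were the other genes with lower values in Abx, at -2.25 (standard error 0.71, limma adjusted p = 0.242) and -2.42 (standard error 0.52, limma adjusted p = 0.107), and each was at or under 0.11 FPKM in all Abx libraries and passed the filter through the Con libraries only.

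Genes of G1/S and DNA replication had a median difference of 0.68 over 43 of 48 genes tested, with 10 genes higher in Abx and 1 lower where the unadjusted p was below 0.05 (4.74% and 6.25% of all genes tested), and 0 called by limma. Pcna, the sliding clamp of DNA polymerases, was at 97.5, 120 and 119 FPKM in Con, against 193, 228 and 257 FPKM in Abx. All Abx libraries were above Con (1.0, standard error 0.22, limma adjusted p = 0.109). Ccne2, cyclin E2, was listed at 0, 0 and 0.02 FPKM in Con, against 28.2, 15.9 and 13.7 FPKM in Abx (4.26, standard error 0.68, limma adjusted p = 0.0911), and it passed the filter through the Abx libraries only. So did Cdk6, also among the genes counted as higher, at 0.90, 0.85 and 0.78 FPKM in Con against 7.36, 4.56 and 9.50 FPKM in Abx. The gene with lower values was Gins4, of the replicative helicase (-1.1, standard error 0.32, limma adjusted p = 0.198). The D-type cyclins Ccnd2 and Ccnd3, which respond to growth signals, had differences of 0.30 (standard error 0.29) and 0.34 (standard error 0.36). The difference between this list and the mitosis and G2/M genes was not tested.

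Of 17 cell cycle inhibitors, 15 were tested, 0 were called by limma, the unadjusted p was below 0.05 for 2 genes with lower and 0 with higher values in Abx (6.25% and 4.74% of all genes tested), and the median difference was -0.62. Cdkn1a (p21), which blocks cyclin-dependent kinases, was at 595, 582 and 677 FPKM in Con, against 213, 258 and 321 FPKM in Abx. All Abx libraries were under Con (-1.24, standard error 0.21, limma adjusted p = 0.0911). Cdkn1b (p27), a related inhibitor, was at 2.96, 0.97 and 7.02 FPKM in Con, against 0.19, 0.72 and 2.09 FPKM in Abx, with overlapping groups. Gadd45b, a stress-induced gene, had a difference of -0.55 (standard error 0.18, limma adjusted p = 0.256).

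Markers of T and B cells were higher in Abx in sum. The summed level of 11 T cell markers was 1235 to 1413 FPKM in Con and 2565 to 2898 FPKM in Abx. Trbc1 and Trbc2 held most of this sum. Of the 8 tested, 5 were above Con in every Abx library, against 8.49% of all genes tested. In Trac, Cd3e and Cd28 the groups overlapped, Cd4 was listed at 0 in 5 libraries, and Cd8a did not pass 0.04 FPKM in Abx. Among 8 markers of immature T cells the sum overlapped, at 238 to 376 FPKM in Con and 220.0 to 367 FPKM in Abx. Of these, Ptcra, Rag1 and Dntt were above Con in every Abx library, Arpp21 and Tcf12 were below it, and Rag2 was listed at 0 in all libraries. Rag1 did not pass the filter, and Abx library 2, at 0.99 FPKM, was close to Con library 1, at 0.86 FPKM. The 10 B cell markers summed to 389 to 511 FPKM in Con and 857 to 904 FPKM in Abx, with Ighm and Igkc holding most of it. Of these, Ighm, Igkc and Ms4a1 were above Con in every Abx library and Cd79b and Cd22 below it, Ebf1 did not pass 0.09 FPKM in any library, and Pax5 was listed at 0 in Con but at 2.33, 0.33 and 0 FPKM in Abx. Of the 6 NK cell markers Gzma alone was tested, at 0 to 13.8 FPKM in Con and 215 to 224 FPKM in Abx, while Klrb1c and Prf1 were listed at 0 in all libraries. Mast cell and basophil markers summed to 343 to 426 FPKM in Con and 185 to 295 FPKM in Abx. Cpa3 held most of this sum, and its groups overlapped, at 395.6, 286.7 and 378.9 FPKM in Con against 176.5, 263.8 and 293.4 FPKM in Abx. Mcpt8, Kit and Ms4a2 were below Con in every Abx library, Kit and Ms4a2 at 0.65 FPKM or less in Abx. Fcer1a was listed at 0 except in Abx library 2, at 16.19 FPKM. The sums of the other marker lists overlapped between the groups. Globins and other erythroid genes were the highest of these, at 6422 to 14820 FPKM in Con and 3185 to 8658 FPKM in Abx, although the gate excluded Ter119+ cells. Epithelial genes summed to 24.6 to 1158 FPKM in Con and 55.7 to 142 FPKM in Abx, and myeloid genes to 141 to 403 FPKM and 176 to 369 FPKM. Neutrophil genes summed to at most 75.3 FPKM in any library, endothelial genes to at most 21.1 FPKM and fibroblast genes to at most 3.73 FPKM. The sums of the 13 ILC2 markers overlapped, at 2183 to 2624 FPKM in Con and 1788 to 2336 FPKM in Abx. Of the 11 tested, 2 were below Con in every Abx library, against 8.73% of all genes tested. These were Areg at 657, 783 and 780 FPKM in Con against 393, 278 and 197 FPKM in Abx, and Icos at 241, 289 and 287 FPKM in Con against 82.4, 115 and 120 FPKM in Abx. Ptprc was above Con in every Abx library. The part of these other cells in the levels of the mitosis and G2/M genes was not tested.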

How the data were processed

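Each library has a deposited file of FPKM per gene, which the authors made by trimming reads (Cutadapt), mapping them (HISAT2) and assembling transcripts (StringTie). The methods name a human annotation, while the identifiers are those of mouse genes, and 55134 of the 55394 are in GENCODE M21. The submitters' processing notes also name Bowtie 0.12.2 and the builds mm8 and mm9, with no role given. Whether counting used strand is not given in the sources used here. Between 23.0% and 27.2% of the low values lay within 0.1 of whole multiples of the unit that suited them best. That unit was the best of many tried, while the 20.0% given by chance holds for a single fixed unit, so the excess over it has no measured meaning. Reads were not recovered and depth is unknown.

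Genes that reached 1 FPKM in 3 or more of the 6 libraries entered the test on log2(FPKM + 1), with no further scaling, using limma 3.58.1 in R 4.3.3 (lmFit, eBayes with trend, two-sided, Benjamini-Hochberg over 8718 genes). The pseudocount of 1 understates the change of low genes. A call needed an adjusted p below 0.05 and a change of more than 2-fold, as in the methods. DESeq2, which the authors used, needs counts and was not run. No p was computed or adjusted over the members alone. A member under the filter that is given a p was tested by exact permutation. Every member could be named. The value in each library is given for members with an unadjusted p under 0.05 or groups that do not overlap, for the 5 with the highest means and for Mki67, Top2a, Cdk1, Ccnb1, Ccnb2, Plk1, Aurka, Aurkb, Birc5, Cdc20, Ube2c and Stmn1, and the others are given by ranges and counts. Of the other pathway genes, those at an unadjusted p under 0.05 and Cdkn1a, Cdkn1b, Ccnd2, Ccnd3, Foxm1, Mybl2 and Pcna could be named. The members, roles and lists were chosen with earlier results of these data known. The marker lists also covered myeloid cells, neutrophils, erythroid cells, epithelium, endothelium and fibroblasts. Near-identical copies were sought with blastn 2.17.0 (identity of at least 95%, over at least 200 bases). Overlaps of exons were read from GENCODE M21, and promoter windows from RefSeq (GRCm38.p6). Tables and figures were made with Python 3.11.15, pandas 2.3.3, numpy 2.4.6, scipy 1.17.1 and matplotlib 3.10.9. The fit was tested on simulated data.

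The alternatives were other pseudocounts (0.1, 0.01), no filter, a mean of 5 FPKM or more as a stricter filter, quantile normalization, median centring, leaving out each library, and a replicate block.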

Additional observations from a re-analysis of the deposited data

How the results depend on the processing

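The count of members called was 0 under every alternative that kept the adjusted p, and 4 at an unadjusted p under 0.05 with any fold change. Across all genes, 5 were called, 7 were called with the stricter filter or with quantile normalization, and 0 were called with a pseudocount of 0.1 or 0.01, without a filter, with median centring or with the replicate number as a block. With each library left out in turn 0 to 2 genes were called, the highest without Con library 3 or Abx library 2, and 814 passed at an unadjusted p with a fold change over 2. The median difference of the members was 0.11. It was 0.42 with the stricter filter, which left 29 members, and 0.37 without Con library 2, within a range of 0.10 to 0.37 over the libraries left out. It was -0.01 over all 56 members without a filter. The ratio of the summed level was 1.28 to 1.38 with a library left out. Of 462 differences of 38 single genes under the alternatives, 8 changed sign, in Cks2 (-0.069 with quantile normalization, and -0.15 to 0.25 with a library left out), Cks1b (-0.51 to 0.0183), Plk1 (-0.0687 to 2.54), Cdc20 (-1.22 to 1.91) and Ube2c (-0.12 to 0.96). The cause was not tested. Leaving out a Con library puts Kif23 under the filter, and leaving out an Abx library does so for Ect2, so these give no value. The deviations of same-numbered libraries from their group means had correlations of -0.02, -0.03 and 0.01 across genes. With 3 libraries per group, these values cannot show whether the numbers pair the libraries. The block changed no call of a member. The sum as a share of total FPKM, without Stmn1 or without the 5 highest members, its values with a library left out, and the counts at an unadjusted p under each alternative were chosen after seeing the data. Depth is unknown, and a level of 0 shows only that a transcript was not detected at this input.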
